A study of Homo sapiens with 12 samples.

Results

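The 10 promoters described here belong to genes of the E2F and RB network and of the G1/S step of the cell cycle: E2F1, E2F2, E2F3, E2F8, RB1, RBL1, CDKN2D, CCNE1, CCNE2 and CDC25A. They were set by gene name and transcription start site (TSS), but the choice was made with earlier results of these data known. How far this shaped the counts below was not tested. A region was counted for a promoter when its summit lay within 2 kb of the TSS in NCBI36. The lists hold 1 ChIP-Seq library for each of the factors E2F1, CASP8AP2, NPAT and HINFP in each of 2 cell lines, 8 libraries in all, with no replicate. hTERT-RPE1 is a retinal pigment epithelial line immortalized with telomerase, and U2OS is an osteosarcoma line. The labels name no treatment. Rabbit IgG was the control for E2F1, CASP8AP2 and NPAT and goat IgG for HINFP. The libraries listed between 39603 and 478015 regions, each with at least 8 reads piled up at its summit, and the 10 promoters held between 3 and 17 of them per library. At these promoters, E2F1 was the factor with a region in every case: all 10 had an E2F1 region in both lines, with the summit no further than 199 bp from the TSS.

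E2F proteins bind DNA as dimers with DP proteins and switch on genes for S phase. In G1 they are held in check by RB1 and its relatives RBL1 (p107) and RBL2, the pocket proteins. Cyclin D and cyclin E kinases phosphorylate the pocket proteins, which releases E2F. E2F1, E2F2 and E2F3 are the activators of the family, and E2F8 is a repressor that binds without DP. CDKN2D (p19INK4d) inhibits CDK4 and CDK6, CCNE1 and CCNE2 are the cyclins E that activate CDK2, and CDC25A is the phosphatase that removes the inhibitory phosphates of CDK2. Several of these genes are known E2F targets, so that the network feeds back on itself.

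The sequences before the RefSeq start are shown for 6 of these genes, the 5 in which an E2F motif was found and CDKN2D, which held none. RB1 and CCNE1, also without a match, are not shown. They were searched for the E2F motifs TTTCGCGC, TTTGGCGC, TTTCCCGC and TTTGCCGC on both strands, and capitals mark the matches. The sequences are from RefSeq (GRCh38.p14), on the strand of the gene, and each ends at the last base before the start. The RefSeq starts were not placed on NCBI36, so motifs and summits cannot be set on a common scale to the base. CDKN2D is shown at 250 bases, as its summit lay furthest upstream, and the others at 100.
E2F1: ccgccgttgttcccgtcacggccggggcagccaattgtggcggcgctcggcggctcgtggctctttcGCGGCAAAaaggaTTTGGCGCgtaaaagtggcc
E2F2: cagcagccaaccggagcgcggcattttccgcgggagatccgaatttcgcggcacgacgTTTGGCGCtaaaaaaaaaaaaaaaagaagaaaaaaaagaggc
E2F3: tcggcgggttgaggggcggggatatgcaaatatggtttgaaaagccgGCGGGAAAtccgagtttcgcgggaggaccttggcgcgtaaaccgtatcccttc
RBL1: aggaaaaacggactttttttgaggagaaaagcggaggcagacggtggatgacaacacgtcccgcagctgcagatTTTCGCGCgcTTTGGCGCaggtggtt
CDC25A: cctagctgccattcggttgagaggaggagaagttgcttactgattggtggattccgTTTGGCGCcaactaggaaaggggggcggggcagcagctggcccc
CDKN2D: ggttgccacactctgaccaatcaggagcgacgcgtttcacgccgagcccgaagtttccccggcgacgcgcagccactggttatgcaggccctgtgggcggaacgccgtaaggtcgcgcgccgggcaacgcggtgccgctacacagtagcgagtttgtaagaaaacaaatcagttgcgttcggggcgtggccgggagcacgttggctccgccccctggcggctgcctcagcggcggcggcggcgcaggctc

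Of the 10 genes, 8 were matched in the RefSeq promoter table, which gives 250 bases before and 50 after each start, and they had 9 windows because E2F3 has 2 starts, of which the one with a motif is shown. The motifs were found for 5 genes, in 5 of the 9 windows (55.6%), against 3.31% of all 35116 windows of the table. The E2F1 and RBL1 windows each held 2 matches, which begin 33 and 20 bases before the start of E2F1 and 26 and 16 bases before that of RBL1. The single matches of E2F2, E2F3 and CDC25A begin 42, 53 and 44 bases before their starts. The windows of RB1, CDKN2D and CCNE1 held none of these letters. Of 22 other genes of the network, 18 were matched, and 1 of their 33 windows (3.03%) held a motif, that of TFDP1, which encodes a DP partner of the E2Fs. ChIP-Seq regions at these other genes were not analysed here.

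CDKN2D had the most E2F1 ChIP sequences and the lowest p-value of the 10 promoters in each line. The hTERT-RPE1 region lay at chr19:10540172-10541336, with 207 ChIP and 13 IgG sequences and a raw ratio of 14.9. The raw ratio divides the number of ChIP sequences plus 1 by that of IgG sequences plus 1, and its 95% Clopper-Pearson interval, computed for ChIP over IgG sequences, was 9.11 to 30.4. In U2OS cells the region lay at chr19:10540533-10541184, with 166 ChIP and 14 IgG sequences and a raw ratio of 11.1 (6.87 to 22.2). The intervals of both lines overlap widely, and they cover counting error only. By p-value the region was the 2nd of 214407 E2F1 regions in hTERT-RPE1 cells (2.31e-44) and the 10th of 125446 in U2OS cells (9.34e-37). These p-values were deposited with the lists, compare 1 ChIP library with 1 IgG library and are not adjusted for the number of regions. The summits were 195 and 192 bp upstream of the TSS, and 150 and 142 reads were piled up there.

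Regions were called significant when the p-value was below 0.00001 and the fold change exceeded 2, as in the methods. In each list the fold change equals the raw ratio times a constant. That constant was read here as a correction for the depth of the library, which the sources used here do not state. By these limits 8 of the 10 promoters had a significant E2F1 region in hTERT-RPE1 cells, against 0.707% of all listed regions of that library. In U2OS cells 6 of 10 did, against 0.748%. The promoters of E2F3, RBL1, CDKN2D, CCNE1 and CDC25A were significant in both lines. Those of E2F8, RB1 and CCNE2 were significant in hTERT-RPE1 cells and that of E2F1 in U2OS cells, while E2F2 passed in neither. At a p-value below 1e-10 the counts were 4 in hTERT-RPE1 and 3 in U2OS cells, where 0.132% and 0.161% of all regions passed. At a fold change over 5 they were 4 and 2, beside 0.38% and 0.355%, and at a p-value below 0.001 they were 10 and 7, beside 6.55% and 5.08%. Falling on different sides of a limit does not show that the lines differ. The median raw ratio over the 10 promoters was 4.86 in hTERT-RPE1 cells, beside 2.20 over all listed regions and 2.22 over the 93 regions 2 to 50 kb from the same TSSs. In U2OS cells it was 3.45, beside 1.83 and, over 68 flanking regions, 1.89. Of the flanking regions, 1 in each line was significant. The region with the most ChIP sequences was taken per promoter, which is not so for the other regions. Regions at promoters of other genes were not set beside these values.

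**Figure D1:**
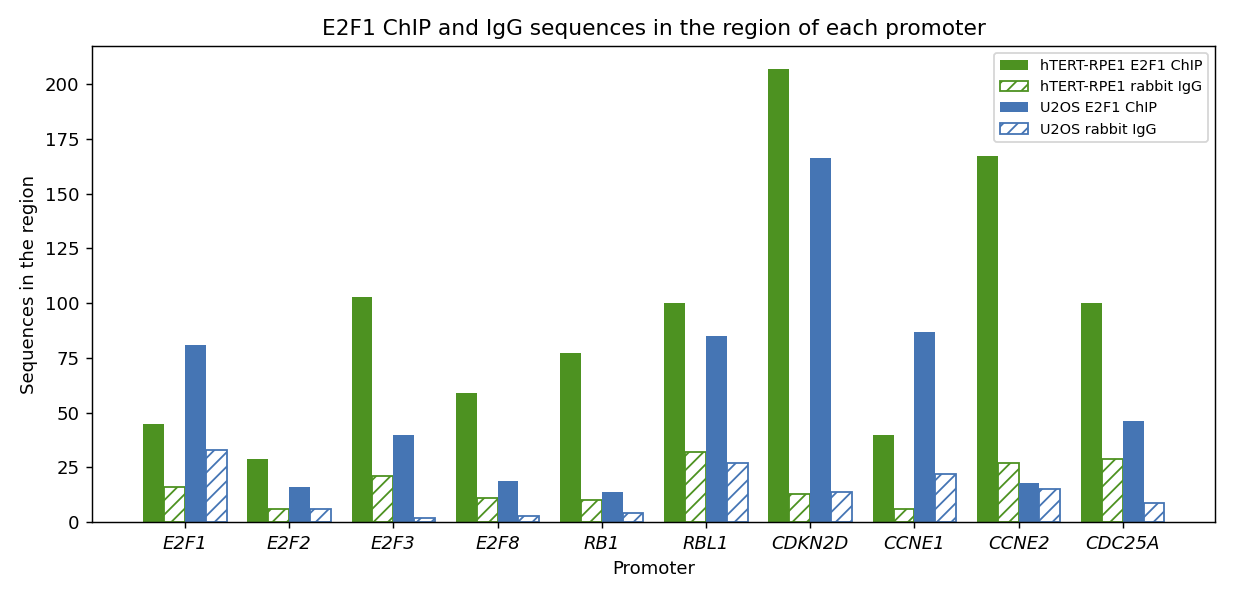
E2F1 ChIP sequences (filled bars) and rabbit IgG sequences (hatched bars) in the region of each promoter, in hTERT-RPE1 (green) and U2OS cells (blue), 1 library each; where a promoter had several regions, the one with the most ChIP sequences is drawn. CDKN2D has the tallest ChIP bars in both lines, 207 and 166 sequences. CCNE2 has 167 ChIP sequences in hTERT-RPE1 and 18 in U2OS cells, in regions of 2107 and 405 bp.

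Among the E2F genes, E2F3 had the most E2F1 sequences in hTERT-RPE1 cells. Its region there, at chr6:20509558-20510449, had 103 ChIP and 21 IgG sequences, a raw ratio of 4.73 (3.05 to 8.26) at a p-value of 1.04e-13. In U2OS cells a shorter region, at chr6:20509854-20510263, had 40 ChIP and 2 IgG sequences, a raw ratio of 13.7 (5.19 to 171) and a p-value of 3.28e-11. The ratio was thus higher in U2OS cells, although the pile at the summit was lower there, with 36 reads against 85. The summits lay 67 and 58 bp upstream of the TSS.

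The promoter of E2F1 itself had lower raw ratios than that of E2F3. Its hTERT-RPE1 region lay at chr20:31737741-31738486, with 45 ChIP and 16 IgG sequences, a raw ratio of 2.71 (1.56 to 5.33) and a p-value of 0.000204942. The U2OS region lay at chr20:31736491-31738489, with 81 ChIP and 33 IgG sequences, a raw ratio of 2.41 (1.62 to 3.80) and a p-value of 5.91e-07. The fold changes of the lines were almost equal, 2.56 in each, and the longer region of U2OS cells, 1999 bp against 746 bp, held more sequences of both kinds. The summit lay 79 bp upstream of the TSS in hTERT-RPE1 cells and 30 bp downstream in U2OS cells.

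E2F2 had the fewest E2F1 ChIP sequences of the 10 promoters in hTERT-RPE1 cells, 29. For E2F2 the region at chr1:23730155-23730586 had 29 ChIP and 6 IgG sequences in hTERT-RPE1 cells, a raw ratio of 4.29 (1.97 to 14.2) at a p-value of 6.81e-05. In U2OS cells 16 ChIP and 6 IgG sequences, at chr1:23730194-23730556, gave a raw ratio of 2.43 (0.991 to 8.32) and a p-value of 0.0120756. Before depth correction, the interval of E2F2 lay above 1 in the first line and reached below 1 in the second. After it, the intervals of 9 of the 10 promoters lay above 1 in U2OS cells, that of E2F2 included and that of CCNE2 not. E2F8, the repressor, had 59 ChIP and 11 IgG sequences at chr11:19218994-19219867 in hTERT-RPE1 cells, with a raw ratio of 5.00 (2.79 to 11.3) and a p-value of 5.12e-09. The U2OS region had 19 ChIP and 3 IgG sequences, at chr11:19219115-19219490, with the same raw ratio of 5.00 (1.86 to 33.4) and a p-value of 0.000144121. The E2F8 ratios were equal before depth correction, on 59 sequences in one line and 19 in the other.

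Of the pocket protein genes, RBL1 had E2F1 regions of similar size in both lines. In hTERT-RPE1 cells 100 ChIP and 32 IgG sequences lay at chr20:35157251-35158354, with a raw ratio of 3.06 (2.08 to 4.81) at a p-value of 5.36e-09. In U2OS cells 85 ChIP and 27 IgG sequences lay at chr20:35157172-35158292, with a raw ratio of 3.07 (2.02 to 5.05) and a p-value of 1.86e-09. The summits were 13 and 17 bp upstream of the TSS, closer than at any of the other promoters. RBL1 also had the most IgG sequences per length of the E2F1 regions in hTERT-RPE1 cells, 29.0 per kb, where the others had 7.78 to 23.5. RB1 had 77 ChIP and 10 IgG sequences at chr13:47775112-47776397 in hTERT-RPE1 cells, with a raw ratio of 7.09 (3.97 to 16.7) and a p-value of 1.09e-13. The U2OS region had 14 ChIP and 4 IgG sequences, at chr13:47775663-47776012, with a raw ratio of 3.0 (1.1 to 14.6) and a p-value of 0.00674756. The RB1 pile at the summit was 25 reads in the first line and 10 in the second, and the intervals of the ratio overlap.

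Of the cyclin E genes, CCNE2 had the widest gap between the lines in E2F1 ChIP sequences of all 10 promoters. Its regions differed in length, with 2107 bp in hTERT-RPE1 and 405 bp in U2OS cells. Per kb they held 79.3 and 44.4 ChIP sequences. At CCNE2, E2F1 had 167 ChIP and 27 IgG sequences in hTERT-RPE1 cells over 2107 bp, from 95976399 to 95978505 on chromosome 8, with a raw ratio of 6.0 (4.10 to 9.67). Its p-value of 1.09e-24 was the 27th of the library. The U2OS region ran from 95976516 to 95976920, and its 18 ChIP and 15 IgG sequences gave a raw ratio of 1.19 (0.571 to 2.56) with a p-value of 0.245397. In this region of 405 bp E2F1 was thus not detectable above the IgG control. Further regions of 17 and 13 ChIP sequences lay 1484 and 965 bp from the TSS in U2OS cells, with raw ratios of 1.5 (0.683 to 3.65) and 2.80 (1.004 to 13.7). Both lay within the span of the hTERT-RPE1 region, with deposited p-values of 0.101 and 0.0112. The summits nearest to the TSS were 88 and 74 bp from it, on the side of higher coordinates in both lines.

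CCNE1, the other cyclin E gene, was significant in each. The hTERT-RPE1 region held 40 ChIP and 6 IgG sequences at chr19:34994155-34994915, with a raw ratio of 5.86 (2.81 to 19.2) and a p-value of 2.34e-07. The U2OS region held 87 ChIP and 22 IgG sequences at chr19:34993947-34994978, with a raw ratio of 3.83 (2.45 to 6.63) and a p-value of 1.01e-11. CCNE1 and E2F1 were the promoters with more ChIP sequences in U2OS than in hTERT-RPE1 cells, and both had more IgG sequences there too. CDC25A had 100 ChIP and 29 IgG sequences at chr3:48204090-48205343 in hTERT-RPE1 cells, with a raw ratio of 3.37 (2.26 to 5.41) at a p-value of 5.79e-10. In U2OS cells 46 ChIP and 9 IgG sequences at chr3:48204542-48205216 gave a raw ratio of 4.70 (2.47 to 11.9) and a p-value of 3.98e-08. Its summits lay 137 and 132 bp upstream of the TSS.

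The lines were compared by dividing the depth-corrected ChIP/IgG ratio of hTERT-RPE1 cells by that of U2OS cells, with a 95% exact conditional interval. Each value compares 2 libraries and not the lines, since neither was replicated. The interval held 1 at 8 of the 10 promoters. CCNE2 was 4.54 times higher in hTERT-RPE1 cells (1.89 to 10.9), and E2F3 had 0.220 times the ratio of U2OS cells (0.0239 to 0.969). With the sequences of all regions within 2 kb summed, 182 ChIP and 31 IgG in hTERT-RPE1 and 48 and 30 in U2OS cells, CCNE2 was 3.25 times higher (1.72 to 6.17). The E2F3 interval nearly reached 1 and rests on 2 IgG sequences in U2OS cells, where no E2F1 region was listed 2 to 50 kb from its TSS, against 11 in hTERT-RPE1 cells. At E2F3 the regions held 4.88 IgG sequences per kb in U2OS cells against 23.5 in hTERT-RPE1 cells, and 97.6 against 115 ChIP sequences per kb. At CCNE2 the regions held 37.0 IgG sequences per kb in U2OS cells against 12.8 in hTERT-RPE1 cells. Their ChIP sequences per kb were 44.4 against 79.3. The part of the IgG counts in either result was not tested. The intervals of the other promoters allow differences of some size in either direction, for example 0.469 to 1.66 at RBL1, 0.506 to 2.85 at CDKN2D and 0.390 to 8.03 at RB1. CCNE1 was 1.5 times higher in hTERT-RPE1 cells (0.534 to 4.87), and 2.29 times (1.12 to 5.02) with all regions within 2 kb summed, when 1 more region of hTERT-RPE1 and 3 of U2OS cells entered.

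The positions of the E2F1 summits hardly moved between the lines. The median distance between the summits of the 2 lines was 4.5 bp over the 10 promoters. It was 14 bp or less at 8 of them, 55 bp at RB1 and 109 bp at E2F1. The closest were CCNE1 with 1 bp, E2F2 with 2 bp and E2F8 and CDKN2D with 3 bp each. The regions of both lines overlapped at all 10 promoters. The summits lay a median of 83.5 bp from the TSS in hTERT-RPE1 cells (13 to 196 bp) and 66.0 bp in U2OS cells (17 to 199 bp). Of the 8 genes with a strand in the RefSeq table, all 8 had the summit upstream of the TSS in hTERT-RPE1 and 7 in U2OS cells, E2F1 being the exception. E2F8 and CCNE2 had theirs on the side of higher coordinates in both lines. A region anywhere within 2 kb says less than its position does: 22.7% of all 4 kb bins along chromosomes 1 to 22 and X held an E2F1 summit in hTERT-RPE1 and 13.2% in U2OS cells. Of the 500 bp bins, 3.52% held one in the first line and 2.06% in the second, and all 10 promoters had an E2F1 summit within 250 bp of the TSS in both lines. The 250 bp limit was chosen after the summits had been seen.

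CASP8AP2, NPAT and HINFP had few sequences at these promoters. Over the 6 libraries of these factors, 30 of 60 pairs of promoter and library had a listed region, 51 regions in all, and none held more than 32 ChIP sequences. A single one of the 51 was significant. CASP8AP2 had a region at 5 of the 10 promoters in hTERT-RPE1 cells and at 8 in U2OS cells, and NPAT at 3 and 7. HINFP had one at 4 and 3. The shares of 4 kb bins with a summit were 18.3% and 23.9% for CASP8AP2, 31.1% and 41.1% for NPAT and 7.85% and 4.68% for HINFP, in the same order of lines. With summits within 2 kb, NPAT was thus near this background at the promoters in hTERT-RPE1 cells. Its count there was 6 when any overlap with the window counted and 7 with a 5 kb window. Significant regions were at 0 promoters for CASP8AP2 in both lines, against 0.112% and 0.0927% of all its regions, and at 0 for NPAT, against 0.259% and 0.108%. HINFP had 1 in hTERT-RPE1 cells, against 0.393%, and 0 in U2OS cells, against 0.5%. Within 250 bp of the TSS, CASP8AP2 had a summit at 2 and 7 promoters, where 2.7% and 4.1% of 500 bp bins held one, in the same order of lines. NPAT had one at 2 and 3, against 4.91% and 7.79%, and HINFP at 0 in each line, against 1.06% and 0.652%. The bins span whole chromosomes and not promoters. The median raw ratio of CASP8AP2 at the promoters was 3.2 in hTERT-RPE1 and 1.61 in U2OS cells, beside 2.2 and 2.0 over all its regions. For NPAT it was 1.88 and 1.57, beside 2.4 and 2.25, and for HINFP 4.17 and 1.6, beside 2.5 and 2.0. Where no region was listed, no pile of 8 or more reads was called, which does not show that a factor was absent.

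The significant HINFP region of hTERT-RPE1 cells was at the E2F1 gene, at chr20:31736725-31737212, with 16 ChIP and 0 IgG sequences. Its raw ratio of 17.0 rests on the added count of 1, and its p-value of 7.71e-06 is just inside the limit. Its summit lay 898 bp downstream of the TSS and no HINFP region was listed at this promoter in U2OS cells. CASP8AP2 had 15 ChIP and 4 IgG sequences at the CDKN2D promoter in hTERT-RPE1 cells, with a raw ratio of 3.20 and a p-value of 0.00989995, and 23 and 13 in U2OS cells, with a raw ratio of 1.71. Its summits there lay 143 and 207 bp upstream of the TSS, near those of E2F1. NPAT had 2 regions at CDKN2D in hTERT-RPE1 cells, one of 18 ChIP and 8 IgG sequences 399 bp upstream of the TSS, with a raw ratio of 2.11, and one of 12 and 2 sequences 36 bp upstream, with a raw ratio of 4.33 (1.34 to 55.2). In U2OS cells it had 8 and 5, with a raw ratio of 1.5. At RBL1, the promoter with the most IgG sequences per length in hTERT-RPE1 cells, CASP8AP2 had 9 ChIP and 9 IgG sequences in that line and 32 and 21 in U2OS cells, with raw ratios of 1.00 and 1.5. NPAT had 17 and 13 at RBL1 in hTERT-RPE1 cells and 21 and 13 in U2OS cells, with raw ratios of 1.29 and 1.57.

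At CCNE2, CASP8AP2 had no region in hTERT-RPE1 cells. Its 2 regions in U2OS cells had 15 ChIP and 13 IgG sequences, a raw ratio of 1.14, and 13 and 4, a raw ratio of 2.80 (1.00 to 13.7). NPAT had regions of 14 and 7 and of 10 and 6 sequences there in hTERT-RPE1 cells, with raw ratios of 1.88 and 1.57, and no region in U2OS cells. At CCNE1, CASP8AP2 and NPAT had no region in hTERT-RPE1 cells, and their regions in U2OS cells had raw ratios of at most 1.40 and 1.5. Of the 30 pairs with a region of another factor, 25 had all its regions below the fold change of E2F1 at the same promoter and line, and 5 had 1 region above it. In hTERT-RPE1 cells these were HINFP at E2F1, CASP8AP2 at E2F3 with 12 ChIP sequences and 1 IgG sequence (fold change 5.97, 1627 bp from the TSS) and CASP8AP2 at E2F8 with 10 and 1 (5.05, 1742 bp). In U2OS cells they were CASP8AP2 at CCNE2 with 13 and 4 (2.56, 551 bp) and NPAT at E2F2 with 12 and 3 (2.65, 246 bp, where E2F1 had 2.58). Their p-values ranged from 7.71e-06 for HINFP to 0.0285809 for NPAT. In 11 of the 30 pairs at least 1 summit was within 200 bp of that of E2F1, 8 of them for CASP8AP2 and 3 for NPAT. Counting the region with the most ChIP sequences of each pair alone, it was 8 of 30. None of the CASP8AP2 and NPAT regions was significant. Of all 500 bp bins, 2.7% and 4.1% held a CASP8AP2 summit and 4.91% and 7.79% an NPAT summit, in hTERT-RPE1 and U2OS cells. A share for 200 bp around E2F1 summits was not computed. The libraries of E2F1, CASP8AP2 and NPAT share the rabbit IgG control of their line, so that their ratios at 1 promoter are not independent.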

How the data were processed

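Reads came from Illumina sequencers, were placed by the authors on NCBI36, and regions were called per library against IgG; the aligner and peak caller are not given in the sources used here. For each region the deposited lists give counts of ChIP and IgG sequences without normalization, the signal at the summit as piled-up reads, a fold change (a ratio, equal to the raw ratio times 1 constant per library) and an unadjusted p-value. Library totals are not known. Regions differ in length between libraries, and the ratios were not corrected for it.

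TSS positions of NCBI36 came with the choice of members and were not checked against an annotation. Strand and sequence came from RefSeq tables of GRCh38.p14. The members and lists were chosen with earlier results of these data known. All 10 members are named. Where a promoter had several regions, the one with the most ChIP sequences was used. The p-value limit of the methods, printed there with the opposite sign, was read as an upper limit. With 1 library per group no test between groups was made. Intervals were computed at 95%. Window matching and intervals were tested on simulated data. The scripts ran in Python 3.11.15 with scipy 1.17.1, pandas 2.3.3, matplotlib 3.10.9 and numpy 2.4.6. Alternatives were windows of 1 and 5 kb, overlap in place of the summit, other limits, other choices of region, 0.5 added in place of 1 and depth scaling.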

Additional observations from a re-analysis of the deposited data

How the results depend on the processing

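The number of promoters with a significant E2F1 region depended on the limits. With a p-value under 1e-10 it was 4 in hTERT-RPE1 and 3 in U2OS cells, beside 0.132% and 0.161% of all listed regions. Requiring a fold change over 5 left 4 and 2, beside 0.38% and 0.355%. A p-value under 0.001 gave 10 and 7, beside 6.55% and 5.08%. For HINFP in hTERT-RPE1 cells it was 0 with a p-value under 1e-10 and 2 with a 5 kb window. NPAT had a region at 7 promoters in hTERT-RPE1 cells with a 5 kb window and at 6 when any overlap with the window counted, and HINFP at 2 with a 1 kb window. With a summit within 250 bp, chosen after the data were seen, the counts in hTERT-RPE1 and U2OS cells were 2 and 7 for CASP8AP2, 2 and 3 for NPAT and 0 for HINFP in each line. Of 240 values of single promoters under other settings, ratios between the lines included, 239 stayed inside their interval. The raw ratio of CCNE1 for E2F1 in U2OS cells fell to 1.92 when all regions were summed. Many intervals are wide, such as 5.19 to 171 for E2F1 at E2F3 in U2OS cells, so staying inside them says little. The CCNE1 ratio between the lines stayed inside at 2.29, although its own interval with summed regions, 1.12 to 5.02, no longer held 1. Where a promoter had 1 region in its window, the nearest and the summed settings returned the same value, so those values could not move. With 7-base forms of the motifs the members with a match stayed at 5, while the other network genes went from 1 to 5 (15.2% of windows) and all windows to 13.0%. No paired analysis was possible because each group has 1 library. The E2F1 values of E2F2, E2F8, RB1 and CCNE2 in U2OS cells rest on 14 to 19 ChIP sequences, and that of E2F3 on 2 IgG sequences.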

Other observations

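Around CCNE1, outside the 2 kb of the promoter and within 50 kb, the lists of U2OS cells held more regions and more IgG sequences per length than those of hTERT-RPE1 cells. The same held for IgG sequences per length in all 3 libraries around E2F1, E2F2 and RBL1. Around E2F2 the CASP8AP2 values were close, 19.7 against 19.3 per kb, and around RBL1 the E2F1 value of hTERT-RPE1 cells rests on 2 IgG sequences. Around E2F8, CDKN2D and CDC25A the libraries went both ways. As a whole, the CASP8AP2 and NPAT lists of U2OS cells were longer, with 250372 against 164571 and 478015 against 299405 regions. The E2F1 list of U2OS cells was shorter, with 125446 against 214407. Around CCNE1 the E2F1, CASP8AP2 and NPAT libraries listed 17, 32 and 39 regions in U2OS cells against 13, 2 and 13 in hTERT-RPE1 cells. Their IgG sequences per kb of listed region were 24.9, 23.8 and 23 in U2OS cells, against 17.9, 9.77 and 10.7. Around CCNE2 the order was the other way, with 2, 2 and 9 regions in U2OS cells against 4, 9 and 13. IgG sequences per kb there were 4.98, 9.82 and 6.57 against 17.0, 10.1 and 10.5. They were also lower in U2OS cells around RB1, at 20.1, 9.21 and 8.23 against 20.9, 26.2 and 9.38. The same held around E2F3 in the CASP8AP2 and NPAT libraries. At the CCNE2 promoter itself, the E2F1 region of U2OS cells had 37.0 IgG sequences per kb, more than any other of the 20 E2F1 regions described. These densities rest on few sequences, 3, 6 and 16 IgG sequences around CCNE2 in U2OS cells, and the IgG library is shared by the 3 factors.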
